A study of Mus musculus with 6 samples.

Results

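Antigen-presenting cells, macrophages among them, pass T cells more than antigen: surface ligands of the B7 family either license or restrain the T cell that reads the antigen. CD80 and CD86 bind CD28 and CTLA-4, ICOSL binds ICOS, and PD-L1 (Cd274) and PD-L2 (Pdcd1lg2) bind the inhibitory receptor PD-1, while ICAM1 holds the cells together through the integrin LFA-1. CD47 acts on the phagocyte itself, where it binds the inhibitory receptor SIRPA and restrains engulfment. Transcripts of these molecules were followed as a set of 10 genes, chosen by gene symbol: Cd80, Cd86, Cd83, Cd274, Pdcd1lg2, Icosl, Icam1, Cd276, Cd47 and Sirpa. All 10 were found among the 16171 genes of the count table.

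The cells were Raw264.7, a mouse macrophage line labelled as wild type, and each library is 1 of 3 per surface. The control surface, TH, is titanium bearing titanate nanowires from alkaline heat treatment, and the other surface, THCaP, is titanium with a calcium phosphate nanowire coating. On both surfaces cells attached for 12 h, received lipopolysaccharide (LPS, a bacterial product that activates macrophages) at 1 µg/mL for 2 h and were cultured for 1 d. LPS was given in all 6 libraries, and levels without it were not measured here. Where 3 values per surface follow, they stand in the order of replicates 1, 2 and 3.

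Libraries held 28000099 to 30317108 counts. Of the 16171 genes, 11480 had enough counts to be tested, and edgeR's quasi-likelihood test called 23.6% of them different between the surfaces at a Benjamini-Hochberg adjusted p under 0.05, 12.0% lower and 11.6% higher on THCaP.  All 8 macrophage markers were tested and their summed level was 2254 to 2708 CPM (counts per 1000000, scaled by trimmed mean of M values, TMM) on TH and 2444 to 2704 on THCaP; 1 of them, Lyz2, was called, higher on THCaP. Several markers of other cells were at or near 0. Over all 6 libraries Cd3e had 1 count, Flt3 2 and Dcn 1, and S100a8 and Camp had 0. Other markers of the T cell, B cell, dendritic and endothelial lists were higher: Cd5 had 1249 counts, Zbtb46 1057, Lck 797, Pecam1 684, Siglech 584 and Cd79b 120. The macrophage marker Mertk was low, at 63 counts. Of the other lineage markers measured, Cd5 (−0.74) and Zbtb46 (−0.82) were called, both lower on THCaP on the log2 scale. T cell markers summed to 12.2 to 16.6 CPM on TH and 7.83 to 10.7 on THCaP, and endothelial markers to 4.55 to 5.65 and 2.27 to 4.06; their part in the results was not tested. Summed over its list, no group of T cell, B cell, dendritic, neutrophil, stromal or endothelial markers exceeded 16.6 CPM in a library. In such bulk samples, fewer cells expressing a gene and less of its RNA per cell cannot be told apart.

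Of the 10 genes, 6 fell on THCaP, 1 rose, 2 were not called and 1, Pdcd1lg2, had too few counts to be tested. Those that fell were Cd274, Cd83, Cd80, Icam1, Icosl and Cd47, and the gene that rose was Cd276. The 6 of 9 tested genes called lower stand beside 12.0% of all tested genes. In 8 of the 9, no TH library lay within the THCaP range or the reverse, beside 43.4% of all tested genes, with Cd86 as the exception. The median log2 fold change of the 9 was −0.69, against 0.0064 over all tested genes. The genes had been chosen with earlier results of these data known, so these counts describe them and test nothing.

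**Figure D1:**
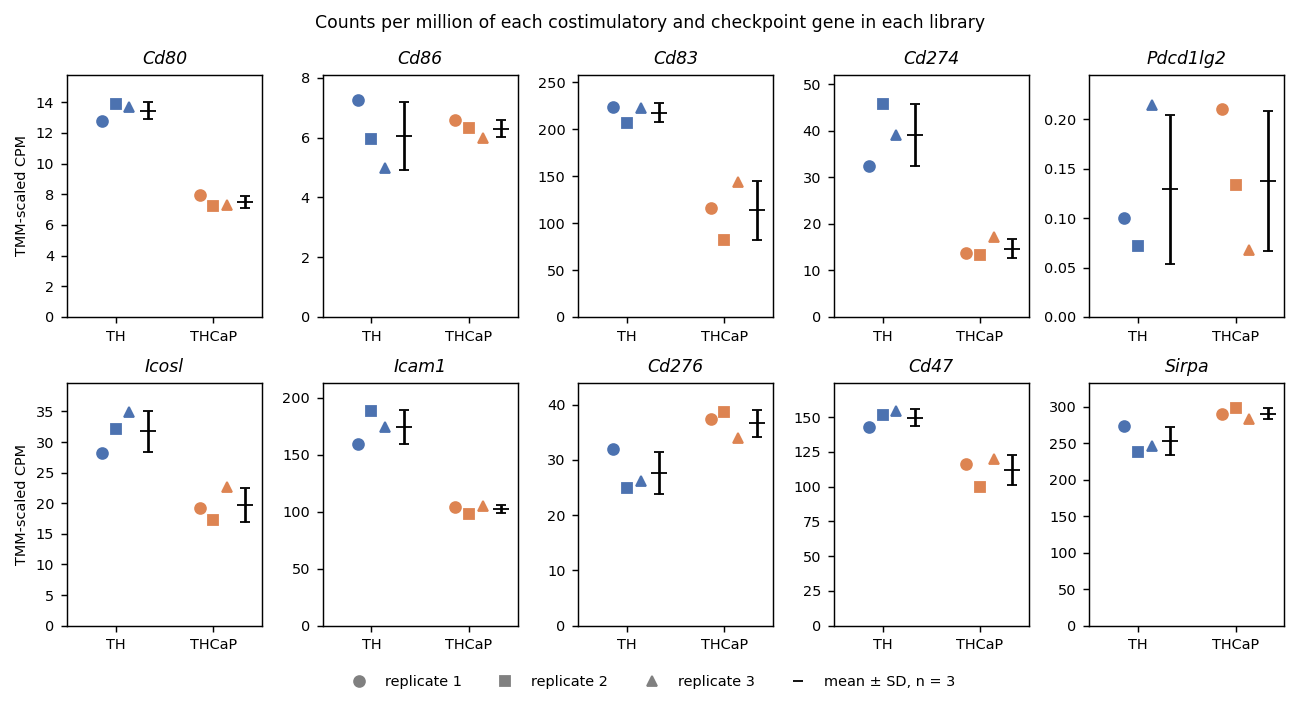
TMM-scaled CPM (y axis, from 0, its scale differing between panels) of each of the 10 genes in the 3 TH and 3 THCaP libraries; symbols mark the replicate and bars the mean ± SD. The THCaP libraries of Cd274, all between 13.2 and 17.1 CPM, lie below every TH library, whereas those of Cd86 lie within the TH range and those of Cd276 above it.

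The bases before the start sites of 3 of these genes are given here: Cd274, the gene with the largest fold change, its nearly silent neighbour Pdcd1lg2, and Icam1, whose window holds a STAT-type site. They come from the RefSeq promoter table (GRCm38.p6), which held windows for 7 of the 10 genes (Cd80, Cd274, Pdcd1lg2, Icosl, Icam1, Cd276 and Cd47). Each is the 250 bases upstream of the RefSeq start, read 5′ to 3′ on the gene's own strand, in lower case with any motif match in capitals: Icam1 at chr9:21015690-21015939, Cd274 at chr19:29367188-29367437 and Pdcd1lg2 at chr19:29410669-29410918, all on the plus strand.
Icam1: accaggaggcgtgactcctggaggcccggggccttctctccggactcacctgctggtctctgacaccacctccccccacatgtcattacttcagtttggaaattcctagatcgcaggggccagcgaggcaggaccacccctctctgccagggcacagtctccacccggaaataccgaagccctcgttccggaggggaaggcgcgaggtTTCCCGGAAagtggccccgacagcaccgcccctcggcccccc
Cd274: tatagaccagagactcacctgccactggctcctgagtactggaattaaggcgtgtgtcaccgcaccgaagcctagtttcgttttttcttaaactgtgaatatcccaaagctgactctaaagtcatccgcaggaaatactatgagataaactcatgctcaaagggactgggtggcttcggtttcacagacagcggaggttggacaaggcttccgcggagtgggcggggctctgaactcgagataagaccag
Pdcd1lg2: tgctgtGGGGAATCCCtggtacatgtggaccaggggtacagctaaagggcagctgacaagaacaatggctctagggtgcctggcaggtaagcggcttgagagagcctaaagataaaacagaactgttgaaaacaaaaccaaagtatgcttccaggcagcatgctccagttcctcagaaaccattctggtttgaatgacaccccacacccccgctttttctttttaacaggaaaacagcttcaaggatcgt

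A set of 5 motifs was searched on both strands of the 300-base windows, which run from 250 bases before to 50 after the start. One was the NF-κB consensus GGGRNWYYCC, where R is A or G, W is A or T, Y is C or T and N any base. The others were the interferon-stimulated response element core (TTTC, any 2 bases, TTTC), the gamma-activated site TTCNNNGAA bound by STAT factors, the AP-1 site TGANTCA and the TATA box TATAAA. In the Icam1 window, a gamma-activated site (TTCCCGGAA) lay at −42 to −34 and a TATA box at 14 to 19 after the RefSeq start. The GENCODE gene starts further on, at 21015985. Both matches, at 21015898 to 21015906 and 21015953 to 21015958, lie before that start. The Icam1 window held no exact NF-κB consensus match. Its printed bases do include tggaaattcc, which departs from that consensus only at the first letter. Near matches of this kind were not searched in any window. The window of Pdcd1lg2 held an NF-κB consensus match (GGGGAATCCC) at −244 to −235, although this gene was nearly silent. The RefSeq window of Cd80, which starts at 38458683 and so lies inside the GENCODE gene, held an AP-1 match (TGATTCA) at −42 to −36 and a TATA box on the reverse strand (printed TTTATA) at 5 to 10. No match to any of these motifs was found in the windows of Cd274, Icosl, Cd276 or Cd47, which says only that these letters are absent there. The Cd47 windows, which start at 49855404 and 49855411, and the Cd276 window, from 58554984, also lie inside their GENCODE genes. No match overlapped another. Of all 32851 windows in the table, 4.51% held the NF-κB consensus, 3.44% the interferon-stimulated core, 8.30% the gamma-activated site, 7.81% the AP-1 site and 13.6% the TATA box. Windows differed in base composition, from 46.0% G and C for Pdcd1lg2 and 49.7% for Cd80 to 78.3% for Cd276, against a median of 52.7% over all windows.

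Among the ligands of PD-1, Cd274 had the largest fold change of the 9 tested genes, while Pdcd1lg2 was barely transcribed. Cd274 encodes PD-L1, which LPS and interferons raise in macrophages, and lies on chromosome 19 at 29367455 to 29388095 (GRCm38, GENCODE M21). The TH libraries held 32.4, 45.7 and 39.0 CPM of it and the THCaP libraries 13.7, 13.2 and 17.1. Each THCaP library was thus below the lowest TH library. The means were 39.0 ± 6.62 and 14.7 ± 2.11 CPM (SD, n = 3 each), a 2.66-fold decrease (log2 fold change −1.41, SE 0.15, edgeR adjusted p = 0.00131). By size of fold change Cd274 ranked 46 among the 1376 genes called lower.

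Pdcd1lg2 encodes PD-L2 and begins 22823 bases beyond the end of Cd274 on the same strand, at 29410919 to 29471161 of chromosome 19. It had 3, 2 and 6 counts on TH, and 6, 4 and 2 counts on THCaP. Summed over a surface this is 11 counts on TH, or 0.126 CPM (95% exact Poisson interval 0.0630 to 0.226), and 12 counts on THCaP, or 0.139 CPM (0.0719 to 0.243). The intervals cover counting error only and overlap, so no difference was detectable at this depth, and the neighbour of Cd274 was close to the limit of detection on both surfaces.

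Cd276, a B7 family member also called B7-H3 whose receptor is not settled, was the gene of the set that rose. It lies on chromosome 9 at 58524298 to 58555437, on the minus strand. Its level was 31.9, 24.9 and 26.1 CPM on TH, against 37.4, 38.6 and 33.9 on the coating. The lowest THCaP library exceeded the highest TH library by a small margin. The increase was 1.33-fold, from 27.6 ± 3.76 to 36.6 ± 2.46 CPM (SD, n = 3 each), with a log2 fold change of 0.41 (SE 0.11, edgeR adjusted p = 0.0303). That call was lost without TH replicate 2 (edgeR adjusted p = 0.119), TH replicate 3 (0.115), THCaP replicate 1 (0.106) or THCaP replicate 2 (0.0628).

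Of the CD28 ligands, Cd80 fell on THCaP and Cd86 was not called. Both lie on chromosome 16, Cd80 at 38455561 to 38496335 and Cd86 at 36603869 to 36666081. Activation of macrophages can raise both proteins. The transcript of Cd80 stood at 12.8, 13.9 and 13.7 CPM on TH, and at 7.95, 7.26 and 7.33 on the coating. The libraries within each surface lay close together and the surfaces were far apart. Cd80 fell 1.79-fold, from 13.5 ± 0.573 to 7.51 ± 0.379 CPM (SD, n = 3 each; −0.84, SE 0.11, edgeR adjusted p = 0.00347).

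Cd86 stood at 7.25, 5.95 and 4.98 CPM on TH, and at 6.58, 6.32 and 6.0 on the coating. All THCaP libraries lay inside the TH range. The log2 fold change was 0.05 (SE 0.17, edgeR adjusted p = 0.833), with a 95% interval from −0.32 to 0.43 that leaves room for a change of either sign. Within each library the length-scaled level of Cd80 (FPKM, fragments scaled to library total and gene length) was 1.52, 2.01 and 2.37 times that of Cd86 on TH, falling between 0.991 and 1.05 times on THCaP. The ratio was thus near 1 in every THCaP library and higher in every TH library. On the log2 CPM scale it differed by −0.91 between the surfaces (two-sided exact permutation test, p = 0.1, Benjamini-Hochberg adjusted p = 0.1 over 3 pairs, the smallest that 3 against 3 libraries allow).

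Icosl, the ligand of ICOS, fell on THCaP. It lies on chromosome 10 at 78069302 to 78083913. Its level was 28.2, 32.2 and 34.9 CPM on TH, and 19.2, 17.3 and 22.7 on the coating, without overlap. The decrease was 1.61-fold (31.8 ± 3.33 to 19.7 ± 2.75 CPM, SD, n = 3 each; −0.69, SE 0.12, edgeR adjusted p = 0.00785).

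Cd83, the maturation marker that keeps MHC class II and CD86 at the surface, had the highest length-scaled level (FPKM) of the set on TH, and its THCaP libraries scattered most among the 9 tested genes. The gene lies on chromosome 13 at 43784775 to 43803132. Its TH libraries held 224, 207 and 223 CPM; the THCaP libraries held 116, 81.5 and 144. The coefficient of variation was 4.51% for TH but 27.6% for THCaP, yet even the highest THCaP library was below every TH library. Cd83 fell 1.91-fold (218 ± 9.83 to 114 ± 31.4 CPM, SD, n = 3 each; −0.94, SE 0.17, edgeR adjusted p = 0.00783). Without THCaP replicate 2, the lowest, the log2 fold change was −0.74, and without THCaP replicate 3, the highest, it was −1.14.

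Icam1, the adhesion ligand of LFA-1 and Mac-1, lies on chromosome 9 at 21015985 to 21028817. The TH libraries held 159, 188 and 174 CPM and the THCaP libraries 104, 98.3 and 105 CPM in the order of replicates 1 to 3. The THCaP libraries were nearly level with each other and all below TH. The 1.70-fold decrease (174 ± 14.8 to 102 ± 3.56 CPM, SD, n = 3 each; −0.76, SE 0.09, edgeR adjusted p = 0.00173) was smaller than that of Cd274 on the log2 scale, a difference that was not tested.

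**Figure D2:**
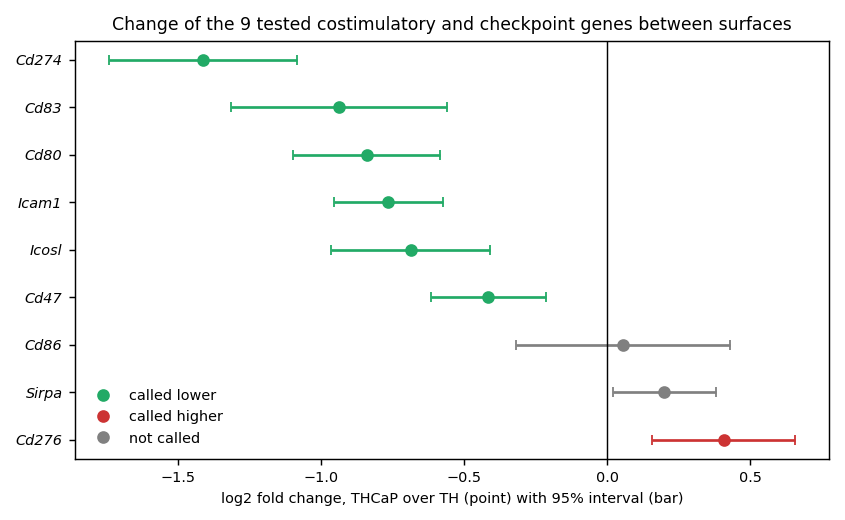
Log2 fold change of THCaP over TH (x axis) for the 9 tested genes, as points with 95% intervals from the edgeR fit, coloured by call. The interval of Cd274 ends at −1.08 and lies apart from that of Cd47, which starts at −0.62. It overlaps those of Cd83 (−1.32 to −0.56) and Cd80 (−1.10 to −0.58). The interval of Cd86 spans 0.

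Of CD47 and its receptor, the ligand fell and the receptor was not called. Cd47, on chromosome 16 at 49800533 to 49915010, stood at 143, 151 and 155 CPM on TH, and at 116, 99.8 and 120.2 on the coating. No THCaP library reached the TH range. The decrease was the smallest of the 6, 1.33-fold (149.6 ± 6.19 to 112 ± 10.8 CPM, SD, n = 3 each; −0.42, SE 0.09, edgeR adjusted p = 0.0138). Its call was lost without TH replicate 2 (edgeR adjusted p = 0.0587), TH replicate 3 (0.0661) or THCaP replicate 1 (0.0537).

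Sirpa, the receptor, is on chromosome 2 at 129592835 to 129632228. It was at 274, 238 and 247 CPM on TH, and at 290.0, 299 and 283 on the coating, so that the THCaP libraries lay just above the highest TH library. Its log2 fold change of 0.20 (SE 0.08, 95% interval 0.02 to 0.38) was not called (edgeR adjusted p = 0.0982). It was called higher without TH replicate 1, the highest TH library (0.26, edgeR adjusted p = 0.036), and when libraries were scaled by their totals (0.25, edgeR adjusted p = 0.0469). Its paralogues Sirpb1a and Sirpb1b, which could share reads with it, had 1 and 0 counts over all libraries.

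Within a library, the FPKM of Cd47 was 0.464, 0.567 and 0.560 times that of Sirpa on TH, and 0.359, 0.298 and 0.379 times on the coating. Both inhibitory ligands fell. The FPKM of Cd274 was 0.393, 0.523 and 0.436 times that of Cd47 on TH, and 0.203, 0.230 and 0.246 times on the coating. Neither ratio overlapped between the surfaces. That follows in part from the changes of the single genes, and the share of all gene pairs that separate was not counted. The log2 CPM ratio differed by −0.62 for Cd47 over Sirpa and by −0.98 for Cd274 over Cd47 (two-sided exact permutation tests, p = 0.1 each, Benjamini-Hochberg adjusted p = 0.1 over the 3 pairs). With 3 against 3 libraries this permutation test cannot give a p below 0.1, so it could not call a difference. The FPKM ratios are taken inside a library and do not depend on how libraries are scaled.

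Per length, the order of the set changed between the surfaces. On TH the order by mean FPKM was Cd83 (100.2 ± 4.41, SD, n = 3), Icam1 (66.3 ± 5.55), Sirpa (39.3 ± 3.08), Cd47 (20.7 ± 0.744), Icosl (10.3 ± 1.02), Cd274 (9.36 ± 1.58), Cd276 (8.49 ± 1.19), Cd80 (4.03 ± 0.159), Cd86 (2.10 ± 0.409) and Pdcd1lg2 (0.037 ± 0.0214). Neighbours in this order did not overlap over the 3 libraries except Icosl with Cd274 and Cd274 with Cd276. On THCaP it was Cd83 (54.3 ± 15.1), Sirpa (46.8 ± 1.15), Icam1 (40.5 ± 1.51), Cd47 (16.1 ± 1.60), Cd276 (11.7 ± 0.764), Icosl (6.64 ± 0.938), Cd274 (3.65 ± 0.529), Cd80 (2.33 ± 0.122), Cd86 (2.27 ± 0.105) and Pdcd1lg2 (0.041 ± 0.0212). There, Cd83 overlapped Sirpa and Cd80 overlapped Cd86, and the other neighbours were separate. Cd276 and Cd274 thus shared a range on TH and lay apart on THCaP, with Cd276 the higher.

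**Figure D3:**
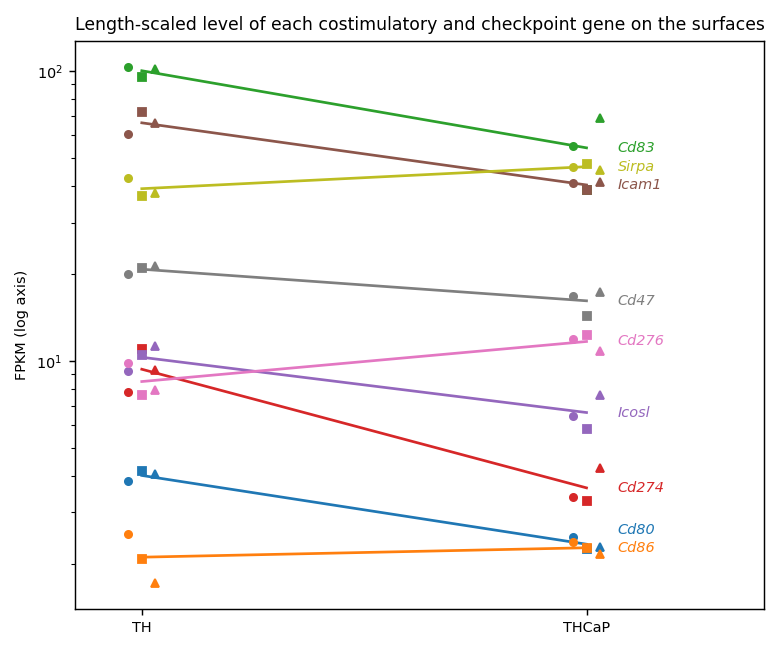
FPKM (y axis, log scale) of the 9 tested genes on TH and THCaP; symbols are the libraries of replicates 1 (circle), 2 (square) and 3 (triangle), and lines join the means. The lines of Cd274 and Cd276 cross between the surfaces, and those of Cd80 and Cd86 nearly meet on THCaP at 2.33 and 2.27 FPKM.

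The summed FPKM of the 10 genes was 260.4, 260.6 and 261 on TH, and 187, 166 and 201 on the coating. Cd83 contributed 36.5% to 39.8% of that sum in the TH libraries and 23.4% to 34.4% in the THCaP libraries. Sirpa contributed 14.2% to 16.4% on TH and 22.8% to 28.9% on THCaP. Its own mean FPKM was 39.3 on TH and 46.8 on THCaP, so much of that larger share comes from the smaller sum. The sum is a description of the set and was not tested.

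The libraries of a surface differed from each other in a shared way across the fallen genes. On THCaP all 6 of them were lowest in replicate 2, and 5 of the 6 were highest in replicate 3, with Cd80 the exception. For Cd80, THCaP replicates 2 and 3 were nearly level, at 7.26 and 7.33 CPM from 217 and 215 counts. The share of all genes called lower that follow the same order was not counted. On TH, 5 of the 6 were lowest in replicate 1, with Cd83 the exception. Over all genes, THCaP replicate 2 was the library farthest from TH on the first principal component (60.5% of the variance) and THCaP replicate 3 the nearest, at 35.9 and 5.17, with THCaP replicate 1 at 19.3 and the TH libraries between −22.2 and −16.3. With 1 library left out, the share of all tested genes called was 21.2%, 6.91% and 6.77% on leaving out replicate 1, 2 or 3 of TH. For THCaP it was 6.53%, 14.4% and 36.0%, in the same order. Under the other settings the share was 29.6% with DESeq2, 22.7% with limma-voom, 23.6% with relative log expression factors, 25.8% with library totals, 18.6% without the filter, 27.2% with the filter of 5 CPM and 25.1% with the replicate number as a block. On the FPKM scale it was 27.2% with log2(FPKM + 1), 27.0% with log2(FPKM + 0.1) and 8.49% with log2(FPKM + 1) and no filter.

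**Figure D4:**
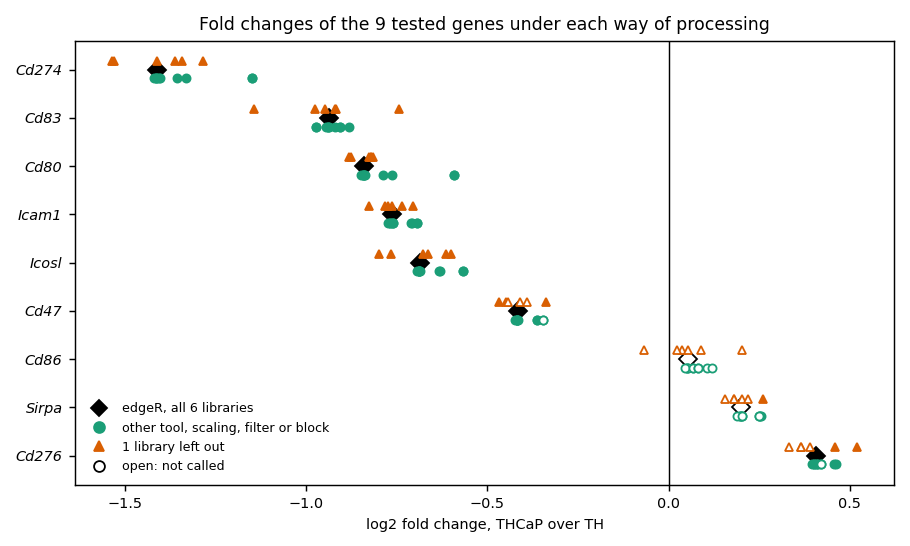
Log2 fold change (x axis) of each tested gene in the edgeR fit of all 6 libraries (diamond), under other tools, scalings, filters and the replicate block (circles), and with 1 library left out (triangles); filled symbols passed an adjusted p of 0.05. Cd274, Cd83, Cd80, Icam1 and Icosl stay filled throughout, while Cd47 and Cd276 have open symbols and Cd86 crosses 0.

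Among genes with at least 10 CPM, those whose log2 CPM tracked Cd274 most closely over the 6 libraries were the kinase Stk40 (Pearson r = 0.998), Ripk2 (0.998), the kinase that carries NOD receptor signals, and Nfkbia (0.995), the NF-κB inhibitor that NF-κB itself induces. Nfkbia fell by 0.72 (SE 0.09), Ripk2 by 0.57 (SE 0.08) and Stk40 by 0.44 (SE 0.08) on the log2 scale; the call of Stk40 was lost without THCaP replicate 1 (edgeR adjusted p = 0.0548). For Cd47 the closest were the collagen gene Col20a1 (0.998), the small GTPase gene Rab12 (0.998) and Tmed4 (0.998), which encodes a protein of the secretory pathway. Col20a1 fell by 0.82 (SE 0.15) and Rab12 by 0.43 (SE 0.09), the latter call being lost without TH replicate 2 (edgeR adjusted p = 0.0599) or TH replicate 3 (0.0639). The log2 fold change of Tmed4 was −0.16 (SE 0.08, edgeR adjusted p = 0.15). The 6 points fall into 2 groups by surface, and of 8906 genes compared 457 had r over 0.95 with Cd274 and 710 with Cd47, so these values are a description.

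The other genes of the pathway were taken from 4 lists. Of 41 further costimulatory and coinhibitory ligands of antigen-presenting cells, 36 were in the table and 22 were tested. Of these 6 fell, 3 rose and 13 were not called, beside 12.0% lower and 11.6% higher over all tested genes, and the median log2 fold change was −0.21. Cd40, the receptor through which T cell help reaches macrophages, fell from 35.5 ± 3.93 to 10.9 ± 3.08 CPM (SD, n = 3 each; −1.71, SE 0.19, edgeR adjusted p = 0.00166). H2-T23, the class Ib molecule Qa-1 that restrains natural killer cells, fell by 0.86 (SE 0.11), although reads of similar class I genes may be shared with it. Tnfsf9, the ligand of the T cell receptor 4-1BB, fell by 0.81 (SE 0.11), and Pvr, the ligand of TIGIT, by 0.62 (SE 0.08).

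The other ligands that were called are named after their values were seen. The galectin gene Lgals9 fell by 0.55 (SE 0.13), a call lost without TH replicate 2 or THCaP replicate 1 (edgeR adjusted p = 0.0664 and 0.0703). Lgals3 fell by 0.31 (SE 0.10). Its call was lost in 9 of the 16 alternatives, among them the omission of any library other than THCaP replicate 3, and library totals (edgeR adjusted p = 0.0768). Those that rose were Cd24a (0.56, SE 0.18), Icam2 (0.79, SE 0.24) and Cd48 (1.55, SE 0.39), the last of these at 0.402 ± 0.231 CPM on TH against 1.20 ± 0.206 on the coating. None of these 3 calls survived leaving out replicate 2 or 3 of TH or replicate 1 of THCaP. Icam2 and Cd24a also lost it without THCaP replicate 2, and Cd24a without THCaP replicate 3. The call of Cd24a (edgeR adjusted p = 0.0498) was lost as well with relative log expression factors (0.0515) and the filter of 5 CPM (0.0525), and with limma on log2(FPKM + 1) and no filter (0.092). The last of these fits also lost Icam2 (0.0736), Lgals9 (0.0849) and Lgals3 (0.143).

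Of 10 binding partners of the set, 7 were tested, 2 rose and 0 fell, with a median of 0.02. That is a share near the 23.6% called over all tested genes. Itgal, the LFA-1 chain that binds ICAM1, rose by 0.48 (SE 0.13), and Spn, the sialoglycoprotein CD43, by 0.47 (SE 0.10). The call of Spn was lost on leaving out replicate 2 or 3 of TH or replicate 1 of THCaP (edgeR adjusted p up to 0.069) and that of Itgal without any library other than THCaP replicate 3 (up to 0.0846). Pdcd1, which encodes PD-1 itself and is named after its value was seen, was transcribed in this line, at 32.9 ± 5.46 CPM on TH against 29.8 ± 1.49 on the coating (SD, n = 3 each), and was not called (−0.14, SE 0.12, edgeR adjusted p = 0.413). The T cell receptors Cd28 and Ctla4 were not tested, and Ctla4 had 0 counts in every library.

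Of 19 genes of SIRPA signalling and other receptors of phagocytes, 18 were tested. Of these 3 fell, 2 rose and 13 were not called, with a median of −0.03. These counts, too, are near the shares over all tested genes, 12.0% lower and 11.6% higher. The receptor genes Lilr4b (−1.26, SE 0.16) and Lilrb4a (−0.95, SE 0.14) fell. They are close copies of each other and may share reads. The adaptor Fyb fell by 0.61 (SE 0.08). Clec12a, an inhibitory lectin receptor, rose from 39.5 ± 2.75 to 64.2 ± 6.35 CPM (SD, n = 3 each; 0.70, SE 0.10, edgeR adjusted p = 0.00369). The other gene that rose, named after its value was seen, was the lectin Clec4a2 (1.54, SE 0.43), at 0.359 ± 0.124 CPM on TH against 1.06 ± 0.416 on the coating. Its call was lost on leaving out replicate 2 or 3 of TH, or replicate 1 or 2 of THCaP, and with limma on log2(FPKM + 1) and no filter (adjusted p = 0.0747). Ptpn6, the phosphatase SHP-1 that SIRPA recruits, was at 688 ± 39.9 and 673 ± 8.97 CPM on TH and THCaP (−0.03, SE 0.08, edgeR adjusted p = 0.77; 0.02 with library totals).

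Of 32 genes that regulate these ligands, 31 were tested, of which 10 fell, 0 rose and 21 were not called, with a median of −0.18, beside 12.0% lower and 11.6% higher over all tested genes. Myc fell from 13.1 ± 1.18 to 5.08 ± 2.06 CPM (SD, n = 3 each; −1.36, SE 0.25, edgeR adjusted p = 0.00795). The NF-κB subunit Relb fell by 0.84 (SE 0.12), the interferon transcription factor Irf9 by 0.60 (SE 0.09) and the interferon receptor chain Ifnar1 by 0.57 (SE 0.11). Cmtm6, whose protein keeps PD-L1 at the cell surface, was at 76.1 ± 4.94 CPM on TH against 76.8 ± 2.52 on the coating and was not called (0.01, SE 0.08, edgeR adjusted p = 0.915; −0.03 without TH replicate 1). Cmtm6 is not among the genes the naming rule gave and was named after its value was seen, as was Ptpn6 above.

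**Figure D5:**
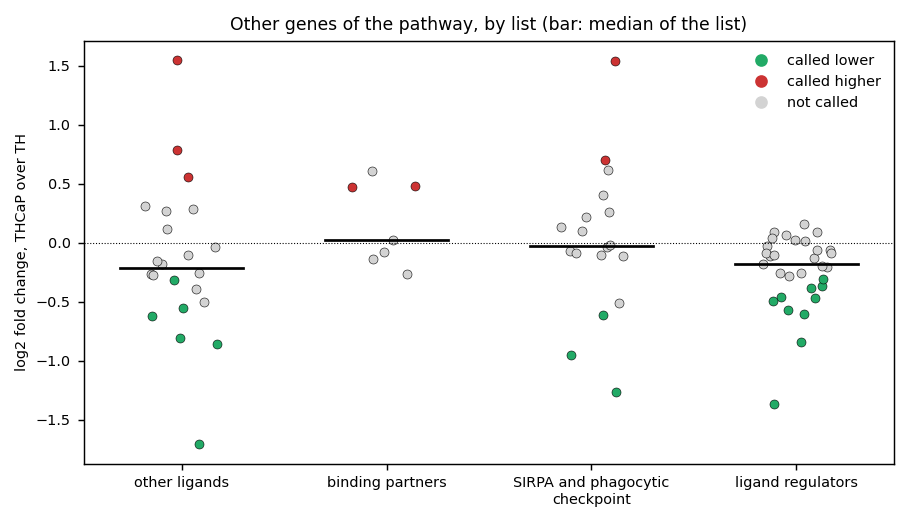
Log2 fold change of THCaP over TH (y axis) for each tested gene of the 4 lists (x axis), coloured by call, with the median of each list as a bar; points are spread sideways for legibility. Called genes of the regulator list are all below 0, down to −1.36 for Myc, while the other lists have called genes on either side or, for binding partners, only above 0.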

How the data were processed

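The submitters' processing notes name fastp, HISAT2, HTSeq and build mm10; for their versions, the annotation and the strand setting, nothing is given in the sources used here. The authors deposited whole-number read counts per gene symbol, not normalised. They also deposited FPKM values; for each of the 10 genes, counts and FPKM implied the same gene length in every library. For each of Cd274, Icam1 and Cd276, 1 other gene model shares exon bases with the gene. None of these 3 models is in the count table, so such reads cannot be told apart.

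The count test used edgeR 4.0.16 under R 4.3.3: filterByExpr (minimum count 10, minimum total 15), TMM factors, a robust quasi-likelihood F test over all 6 libraries with no covariate, and Benjamini-Hochberg adjustment over 11480 genes. SEs were derived from the log2 fold change and F. The fit was tested on simulated data. Groups and replicate numbers came from the labels. Whether the 3 libraries of a surface were separate cultures is not stated, so p-values measure only the spread between these libraries; all within-surface pairs exceeded sampling noise (chi-square per degree of freedom at least 3.84). Alternatives were DESeq2 1.42.0, limma-voom (limma 3.58.1), relative log expression factors, library totals, no filter, and a filter of 5 CPM in 3 libraries. FPKM values were also fitted with limma, as log2(FPKM + 1) or as log2(FPKM + 0.1), restricted to genes averaging 1 FPKM or more, and as log2(FPKM + 1) for every gene with any count. A replicate block and the omission of each library completed the set.

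The 10 genes, the 4 lists and the motifs were chosen with earlier results of these data known. Beyond the 10 genes, the naming rule took from each list up to 4 called genes of at least 5 CPM with the largest change, and the 3 genes of at least 10 CPM most correlated with Cd274 and with Cd47. Positions come from GENCODE M21 (GRCm38, the assembly mm10 denotes). Log2 CPM for ratios used a prior count of 2. The planned ratio of Cd274 to Pdcd1lg2 was not formed, because Pdcd1lg2 did not pass the filter, and protein sequences were not used here.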

Additional observations from a re-analysis of the deposited data

How the results depend on the processing

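Of the 9 tested genes, 8 kept their direction under all 16 alternatives, and 5 of the 7 calls (Cd274, Cd83, Cd80, Icam1 and Icosl) held under all of them. Cd86, which was not called, ran from −0.068 without TH replicate 3, a reversal, to 0.20 without TH replicate 1. The number of the 10 genes called was 5 to 8 with 1 library left out, in place of 7. It was 8, with Sirpa higher, with library totals, log2(FPKM + 1) or log2(FPKM + 0.1), and 5 with log2(FPKM + 1) and no filter, where Cd276 and Cd47 lost their calls (limma adjusted p = 0.0599 and 0.0561). Over all genes 2709 calls became 1294 with log2(FPKM + 1) and no filter, and 756 to 4165 with 1 library left out. The counts higher and lower were 1333 and 1376, but 1904 and 1063 with library totals, which moved the median log2 fold change of all genes from 0.0064 to 0.059. With 1 library left out, 4 to 14 of the further ligands (9 in the full fit), 0 to 2 of the binding partners (2) and 5 to 13 of the regulators (10) were called. With log2(FPKM + 1) and no filter 1 binding partner and 6 regulators were called. Of the genes not called, Ptpn6 reversed to 0.0189 with library totals, 0.0206 with log2(FPKM + 1), filtered or not, and 0.0207 with log2(FPKM + 0.1), and ran from −0.0611 to 0.0134 with 1 library left out. Cmtm6 ran from −0.0306 to 0.0644 with 1 left out. The ratios within a library kept their sign in all alternatives run for them.

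Whether replicate numbers pair the libraries is not stated in the labels. Deviations of same-numbered TH and THCaP libraries correlated at −0.02, −0.072 and 0.06 over genes. Those of differently numbered libraries correlated at −0.093 to 0.10. Deviations are taken from means of 3 libraries, so these values cannot decide on a pairing. With the replicate block 2881 genes and 7 of the 10 were called, and no call of the 10 changed. Depth limits Pdcd1lg2, which had too few counts to be tested.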
